A study of Mus musculus with 6 samples.

Results

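The neutrophil-attracting CXC chemokines and their receptor were taken as the genes whose symbol was exactly Cxcl1, Cxcl2, Cxcl3, Cxcl5 or Cxcr2. All 5 were present among the 754 genes measured. The measurements came from 6 samples of F4/80+, CD11b+ macrophages sorted by FACS from the peritoneal lavage of adult C57BL/6J mice, all of which had received ID8 cells, a mouse ovarian cancer line, 7 weeks before treatment. The 3 PBS samples came from mice given 2 intraperitoneal doses of PBS, on days 1 and 5. The 3 IRF5-NP samples came from mice given nanoparticles on the same days, with 30 µg of mIRF5 mRNA according to the labels. IRF5 is a transcription factor of the interferon regulatory factor family. The study's methods describe polymer particles coated with a mannose ligand and loaded with a mix of IRF5 and IKKβ mRNA, whereas the labels name mIRF5 only. No group given particles with another or no mRNA was analysed here, so particle and cargo cannot be told apart. The labels do not say whether each sample was 1 mouse, and the p-values then measure only the spread between these samples.

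CXCL1, CXCL2, CXCL3 and CXCL5 are small secreted proteins that carry the amino acids Glu-Leu-Arg before the first cysteines, and this motif lets them bind CXCR2, a G protein-coupled receptor found chiefly on neutrophils. Macrophages, mesothelial cells and fibroblasts make these ligands after Toll-like receptor, IL-1 or TNF signalling, which acts on their genes through NF-κB. In the peritoneal cavity, resident macrophages are a known source of CXCL1 and CXCL2, which draw neutrophils from the blood.

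Cxcl1, Cxcl2 and Cxcl3 are shown first by the DNA before their starts, since their probes exceeded the background in at least 5 of 6 samples and the genes stand close together on mouse chromosome 5. In RefSeq's GRCm38.p6 gene order the cluster ran Cxcl5, Ppbp, Pf4, Cxcl3, Cxcl15, Cxcl1, Cxcl2, of which Ppbp and Cxcl15 had no probe among the 754. The 100 bases before each start, from RefSeq on the same build, all on the + strand, are given 5′ to 3′ for Cxcl1 (chr5:90891145-90891244), Cxcl2 (chr5:90903799-90903898) and Cxcl3 (chr5:90786001-90786100). Capitals mark matches on either strand to GGGNNNTTC and the letters ATAAAAG on the gene strand. GGGNNNTTC is a loose 9-letter pattern modelled on an NF-κB site, with its middle letters left free. A match to it need not be an NF-κB site, and binding was not tested.
Cxcl1: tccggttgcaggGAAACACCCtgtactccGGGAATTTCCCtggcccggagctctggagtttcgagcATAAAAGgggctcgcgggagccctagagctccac
Cxcl2: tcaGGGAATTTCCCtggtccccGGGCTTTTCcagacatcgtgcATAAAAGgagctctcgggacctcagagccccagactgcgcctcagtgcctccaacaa
Cxcl3: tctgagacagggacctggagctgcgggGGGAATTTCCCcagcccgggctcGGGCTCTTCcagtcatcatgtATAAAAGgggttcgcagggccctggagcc

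The longest run of letters common to the 3 windows was GGGAATTTCCC, 11 bases long. It began 71 bases before the start of Cxcl1, 97 before that of Cxcl2 and 73 before that of Cxcl3. It holds 2 overlapping matches to GGGNNNTTC, 1 on each strand. Each window held 1 further match outside this run. ATAAAAG followed, its first base lying 37, 40 and 44 bases after the first base of the run in Cxcl1, Cxcl2 and Cxcl3. Both the run and ATAAAAG were picked by reading these windows. Of the 32851 promoters of 250 bases in the table, 11.8% held GGGNNNTTC on either strand and 3.01% held ATAAAAG on the gene strand. In their last 100 bases, the length shown above, 4.65% and 1.63% did. The whole run was held by 14 (0.0426%) of the promoters of 250 bases. Those 14 belonged to 14 symbols, of which 3 were among the genes measured here, namely Cxcl1, Cxcl2 and Cxcl3. TATAAA was found on the gene strand before Cxcl3 alone of the 3, and 7.59% of all promoters held it. Of the 5 genes, 4 matched the promoter table. Cxcr2, on chromosome 1, had 1 match to GGGNNNTTC on the opposite strand, 157 to 149 bases before its start, and none in its last 100 bases.

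Expression was measured with the NanoString nCounter platform, which counts colour-coded probes bound to each RNA without amplification. Values are normalized counts, that is, counts multiplied by 1 factor per sample. Levels of different genes depend on their probes, so tests of fold changes compared each gene with itself across samples, and sums and ratios of probes are given only to compare samples. The summed counts before scaling ranged from 683472 in IRF5-NP 3 to 1830318 in PBS 1. The background of a sample was set at the mean plus 2 SD of its 8 negative control probes, on the same scale, and lay between 25.6 and 37.8 in 5 samples and at 79.4 in IRF5-NP 3. The counts of PBS 2 and PBS 3 differed by no more than sampling noise (chi-square per degree of freedom 1.07, p = 0.0782 over all genes), so their mean was counted as 1 sample. PBS 1 stood apart from both, at 179 and 158 on that measure. The macrophage markers of the sort, Adgre1 (F4/80) and Itgam (CD11b), lay above the background in all 6 samples. The probe for Irf5 read 1929 to 2573 in the PBS samples and 1960 to 2358 in the IRF5-NP samples (limma log2 fold change -0.03, adjusted p = 0.947), and whether it binds the delivered, codon-optimized mRNA is not given in the sources used here.

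Among the 5 genes, Cxcl2 fell with IRF5-NP treatment, by 2.18 on the log2 scale. Cxcl3 gave -1.89 and Cxcl1 -1.07, neither past the test. The Cxcl5 probe did not rise above the background in any sample, and the Cxcr2 probe did so in 3 of 6. One of the 5 genes thus passed limma's test at an adjusted p of 0.05, against 72 of 754 genes (9.55%) overall and 53 (7.03%) that were lower. The median log2 fold change of the 5 was -1.07, beside -0.03 over all 754 genes. Cxcl2 and Cxcl3, 2 of the 5, were lower in every IRF5-NP sample than in every PBS sample, as were 154 of 754 genes (20.4%). By the methods' t-test with the same adjustment 0 of the 754 genes passed, with 125 at an unadjusted p under 0.05. It too took PBS 2 and PBS 3 as their mean. It was not run with them kept apart, so what the study's own test would give is not known here.

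Cxcl2, also known as MIP-2, is a CXCR2 ligand made in large amounts by activated macrophages. The normalized counts of Cxcl2 were 3906 in PBS 1, 930 in PBS 2 and 1011 in PBS 3. They were 379, 431 and 481 in IRF5-NP 1, 2 and 3. The groups did not overlap: PBS 1 was far above all other samples, PBS 2 and PBS 3 lay close together below it, and the 3 IRF5-NP samples formed a narrow band at the bottom. The lowest PBS value was 1.93 times the highest IRF5-NP value. With PBS 2 and PBS 3 counted as 1, the means were 2438 ± 2076 (SD, n = 2) and 430 ± 50.9 (SD, n = 3), a difference of 4.54-fold on the log2(value + 1) scale. The limma log2 fold change was -2.18 (SE 0.51, 95% interval -3.36 to -1.0, adjusted p = 0.0363), the 25th lowest of the 754 genes.

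The Cxcl2 fold change rested in part on PBS 1. Without PBS 1 it was -1.18, with an adjusted p of 0.0475 by limma, against PBS 2 and PBS 3 counted as 1 sample, which is then assumed to vary as the IRF5-NP samples do. The call was lost when IRF5-NP 1 (adjusted p = 0.103) or IRF5-NP 3 (adjusted p = 0.140) was left out and when all samples were set to 1 median over the genes (log2 fold change -1.94, adjusted p = 0.0517), all by limma. Over the 16 alternatives tried, the log2 fold change ranged from -2.27 to -1.18 and was past the threshold in 8.

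Cxcl3, also called dendritic cell inflammatory protein-1 in mice, encodes a further ligand of CXCR2. Its normalized counts were 556, 119 and 98.9 in PBS 1, 2 and 3. They were 67.6, 59.5 and 70.2 in IRF5-NP 1, 2 and 3. As for Cxcl2, PBS 1 was highest by far and the groups did not overlap, but the gap was narrow, with the lowest PBS value 1.41 times the highest IRF5-NP value. IRF5-NP 3 lay below its own background of 79.4, at 27 counts before scaling, and the exact 95% Poisson interval of its value ran from 46.2 to 102. That interval covers counting error only, and it reaches above the 98.9 of PBS 3. The limma log2 fold change was -1.89 (SE 0.60, 95% interval -3.27 to -0.51, adjusted p = 0.0843), and -0.72 without PBS 1 (adjusted p = 0.318). Cxcl3 passed the threshold in none of the 16 alternatives.

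Cxcl1, or KC, is the ligand most often measured as a sign of neutrophil recruitment in mice. The normalized counts of Cxcl1 were 669, 166 and 197 in PBS 1, 2 and 3, and 125, 152 and 239 in IRF5-NP 1, 2 and 3. Here the groups overlapped: IRF5-NP 3 was higher than PBS 2 and PBS 3, and only PBS 1 stood clear of all IRF5-NP samples. The overlap of the values came from IRF5-NP 3, since IRF5-NP 1 and IRF5-NP 2 read below all PBS samples. For IRF5-NP 2 this lay within counting error, as its 95% Poisson interval, 128 to 180, held the 166 of PBS 2. In IRF5-NP 3 the value was 92 counts before scaling, and its 95% Poisson interval, 193 to 293, held the 197 of PBS 3. All 6 values were above the background. The limma log2 fold change of -1.07 (SE 0.53, 95% interval -2.30 to 0.17, adjusted p = 0.270) shrank to -0.12 without PBS 1 (adjusted p = 0.926).

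Cxcl5, known as LIX, is made in mice largely by epithelial and stromal cells and platelets. Its normalized counts were 35.3, 21.7 and 17.5 in PBS 1, 2 and 3 and 20.9, 15.4 and 62.4 in IRF5-NP 1, 2 and 3. All 6 were below the background of their own sample, so Cxcl5 was not detectable at this depth, and its fitted log2 fold change of 0.06 (limma, adjusted p = 0.965) compares values in the background range. The highest value, in IRF5-NP 3, was 24 counts before scaling, in the sample with the largest scaling factor, 2.60.

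Cxcr2, the receptor of all these ligands, read 56.0, 36.2 and 25.04 in PBS 1, 2 and 3. It read 43.8, 12.1 and 20.8 in IRF5-NP 1, 2 and 3. It exceeded the background in PBS 1, PBS 2 and IRF5-NP 1, and the groups overlapped. The limma log2 fold change was -0.85 (SE 0.56, 95% interval -2.14 to 0.44, adjusted p = 0.418), and -0.41 without PBS 1 (adjusted p = 0.881). The related receptor Cxcr1, which was the only gene with a probe among 5 others of the CXCR1 and CXCR2 axis, lay between 6.66 and 18.2 and below the background in all 6 samples.

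**Figure D1:**
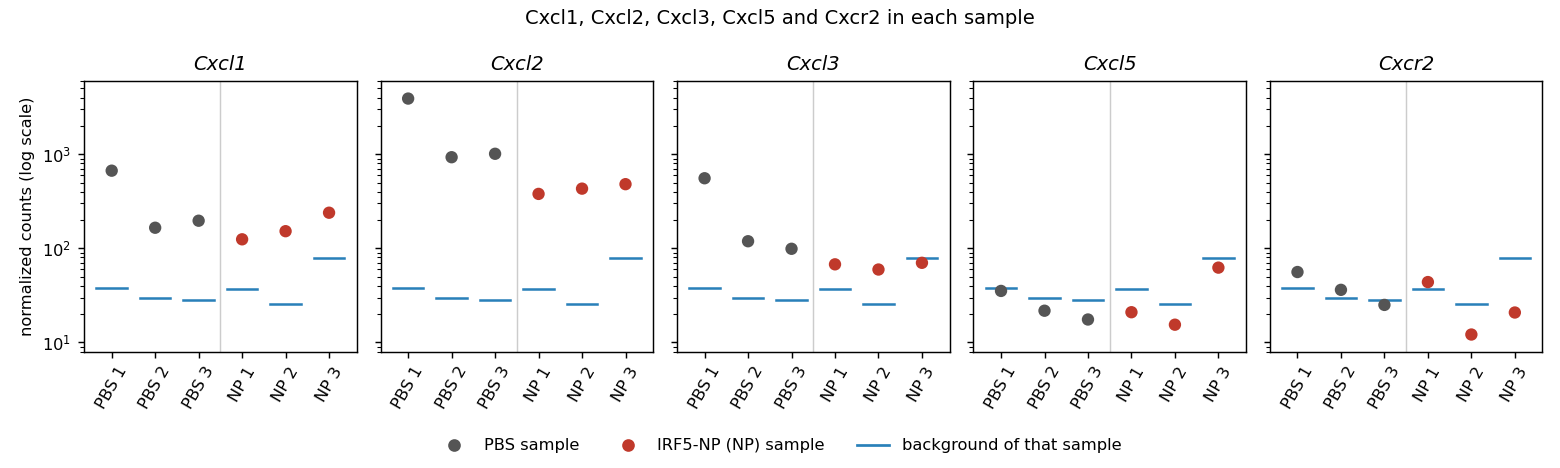
Normalized counts (log scale) of Cxcl1, Cxcl2, Cxcl3, Cxcl5 and Cxcr2 in each PBS sample (grey points) and IRF5-NP sample (red points, NP), with each sample's background as a blue line. The IRF5-NP points of Cxcl2 (379 to 481) all lie below the PBS points (930 to 3906), those of Cxcl1 overlap them, and Cxcl5 lies below the blue line throughout.

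**Figure D2:**
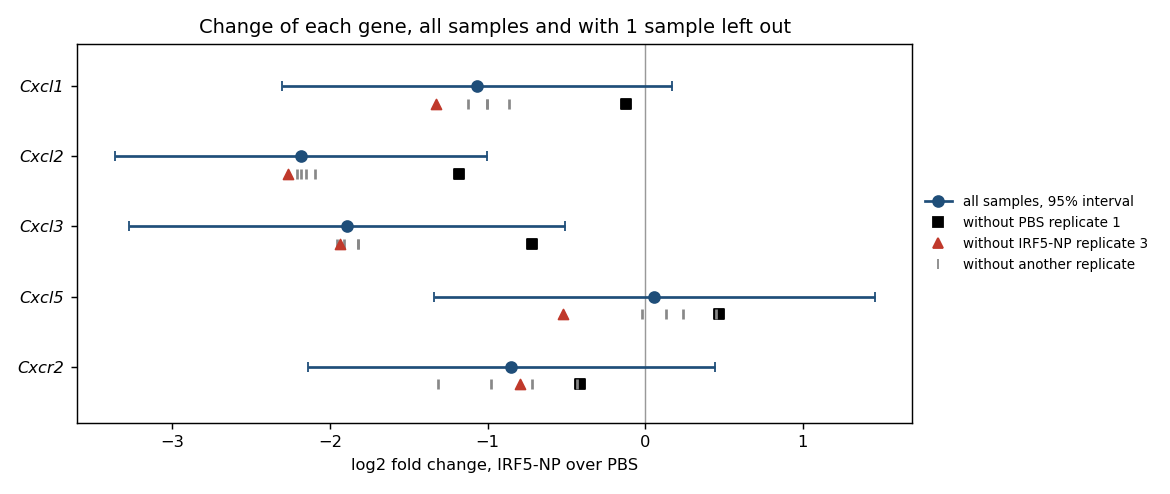
Log2 fold change of each of the 5 genes, IRF5-NP over PBS, from limma with its 95% interval (blue), and the same value with 1 replicate left out (marks under it). Without PBS replicate 1 (black squares) the values of Cxcl1, Cxcl2 and Cxcl3 move to -0.12, -1.18 and -0.72.

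PBS 1 set the upper end of Cxcl1, Cxcl2 and Cxcl3 alike. It exceeded the higher of PBS 2 and PBS 3 by 3.4-fold for Cxcl1, 3.86-fold for Cxcl2 and 4.67-fold for Cxcl3. On the log2 scale its excess over the mean of PBS 2 and PBS 3 was 1.88, 2.01 and 2.35, which ranked 10th, 9th and 7th highest among the 547 genes above the background in all PBS samples, where the median was 0.11. Summed, the 3 ligands read 5131, 1214 and 1307 in PBS 1, 2 and 3. In IRF5-NP 1, 2 and 3 they read 571, 643 and 790. The sum was lower in every IRF5-NP sample, but most of it was the Cxcl2 probe (3906 in PBS 1, 379 in IRF5-NP 1). It therefore largely restates the Cxcl2 values, and 20.4% of single genes were lower in every IRF5-NP sample. For the sum, the spread within the PBS group was wider than the gap between the nearest samples of the groups.

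The 3 ligands were also set against each other. Within a sample, the ratio of the Cxcl2 probe to the Cxcl1 probe was 5.84, 5.62 and 5.15 in PBS 1, 2 and 3 and 3.04, 2.83 and 2.01 in IRF5-NP 1, 2 and 3. The PBS ratios lay close together although PBS 1 had far more of both transcripts, and every IRF5-NP ratio was lower, also after the mean of the negative controls was subtracted. The means were 5.61 ± 0.327 (SD, n = 2) and 2.63 ± 0.544 (SD, n = 3), and an exact two-sided permutation test gave p = 0.2, the smallest that the 10 possible splits allow (0.3 after Benjamini-Hochberg adjustment over 3 ratios). The ratio of Cxcl3 to Cxcl1 was 0.831, 0.719 and 0.503 in the PBS samples and 0.542, 0.391 and 0.293 in the IRF5-NP samples. It overlapped over the 6 samples. With PBS 2 and PBS 3 counted as 1, its exact permutation p was 0.2, also the smallest possible. The test thus does not set it apart from the ratio of Cxcl2 to Cxcl1. The ratio of Cxcl2 to Cxcl3 overlapped as well (exact permutation p = 0.4). These are ratios of probe counts, not of transcript numbers, and they were examined with the values of each gene known. A scaling factor common to a sample cancels in them. How many other pairs of genes had ratios that did not overlap was not counted.

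**Figure D3:**
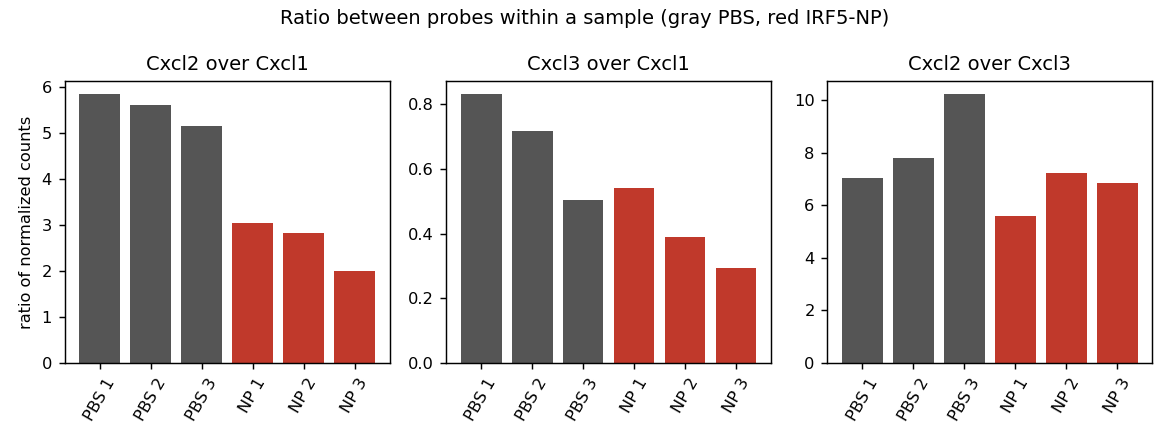
Ratios of probe counts within each sample, Cxcl2 over Cxcl1, Cxcl3 over Cxcl1 and Cxcl2 over Cxcl3, for PBS (grey) and IRF5-NP (red, NP) samples. The Cxcl2 over Cxcl1 ratio lies between 5.15 and 5.84 in PBS samples and between 2.01 and 3.04 in IRF5-NP samples, whereas the other ratios overlap.

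The genes whose pattern over the 6 samples was most like that of each ligand differed from ligand to ligand. Likeness was the Pearson correlation of log2(value + 1) with the genes above the background in all 6 samples, given as a description, since the 6 points share a scaling factor each, 2 of them could not be told apart, and PBS 1 is distant. For Cxcl2 the 3 most alike of 481 genes were Fcgr2b (r = 0.997), an inhibitory Fc receptor, Vcam1 (0.996), an adhesion molecule, and Traf6 (0.996), an adaptor of IL-1 and Toll-like receptor signalling, and without PBS 1 they gave 0.993, 0.984 and 0.983. For Cxcl3 they were Nfkbiz (0.993), which encodes an atypical IκB protein, the scavenger receptor gene Cd163 (0.993) and the histone gene Hist1h1c (0.987). Without PBS 1 they gave 0.936, 0.956 and 0.867. For Cxcl1 they were Apoe (0.985), the apolipoprotein E gene, Twistnb (0.981), an RNA polymerase I subunit gene, and Lst1 (0.978), with 0.934, 0.877 and 0.847 without PBS 1. Cxcl2 ranked 9th for Cxcl3 (0.974, and 0.925 without PBS 1) and 25th for Cxcl1 (0.885, and 0.370 without PBS 1). Cxcl3 and Cxcl1 gave 0.907, and 0.209 without PBS 1. Over the 5 samples without PBS 1, then, the likeness of Cxcl2 with Cxcl3 was largely kept and that with Cxcl1 was not. For Cxcr2, near the background, Ctgf, Marcksl1 and Il21r came first, at 0.958, 0.948 and 0.931.

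The other CXC chemokines, which bind other receptors, went in both directions. Of the 8 with a probe among 9 listed, 1 rose, 2 fell and 5 did not pass the test, with a median log2 fold change of -0.76. Over all 754 genes 19 rose and 53 fell (9.55% in either direction). Cxcl9, a ligand of CXCR3 on T cells, was 381, 877 and 910 in PBS 1, 2 and 3 and 60.9, 76.1 and 85.8 in IRF5-NP 1, 2 and 3 (limma log2 fold change -2.97, adjusted p = 0.00293). Here PBS 1 was the lowest of the PBS samples, whereas for Cxcl2 it was the highest. Cxcl16, the ligand of CXCR6, fell by 1.06 on the log2 scale (adjusted p = 0.0326). Cxcl13, a B cell attractant made by large peritoneal macrophages, rose by 2.01 (adjusted p = 0.0155), from 3579 to 3725 in PBS samples to 9053 to 19060 in IRF5-NP samples. Pf4, whose gene lies beside Cxcl3 in the cluster and encodes platelet factor 4, read 11565, 3172 and 3268 in the PBS samples. In IRF5-NP samples it read 7196, 12007 and 14705, so the groups overlapped (limma log2 fold change 0.83, adjusted p = 0.420). PBS 1 was the highest PBS sample for Pf4, as for its neighbours. Leaving out 1 sample kept the call of Cxcl9 but not that of Cxcl16 (adjusted p = 0.121 without PBS 1, 0.0727 without IRF5-NP 2 and 0.133 without IRF5-NP 3) or Cxcl13 (0.087 without PBS 1 and 0.0966 without IRF5-NP 3), all by limma.

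Genes of NF-κB and of the cytokines that induce these ligands had 18 probes among 30 listed. None rose, 3 fell and 15 did not pass the test, with a median of -0.13. Over all 754 genes 53 (7.03%) fell. Tnfaip3, which encodes the NF-κB inhibitor A20 and is itself an NF-κB target, was 2242, 713 and 642 in PBS 1, 2 and 3 and 221, 237 and 252 in IRF5-NP 1, 2 and 3 (limma log2 fold change -2.38, adjusted p = 0.0168). Nfkbia, the gene of IκBα and another NF-κB target, was 3109, 1499 and 1448 in the PBS samples and 817, 709 and 780 in the IRF5-NP samples (-1.48, adjusted p = 0.0293). For both genes PBS 1 was highest and the groups did not overlap, the order seen for Cxcl2. Of all 754 genes, 154 (20.4%) were lower in every IRF5-NP sample than in every PBS sample. How many of those had PBS 1 highest was not counted. Tnf, a cytokine that induces the ligands, was 330, 268 and 253 in the PBS samples and 104, 52.9 and 65.0 in the IRF5-NP samples, the last of these below the background (-2.03, adjusted p = 0.00932). Without PBS 1, the log2 fold change of Tnfaip3 was -1.51 (adjusted p = 0.0164), and Nfkbia (-0.94, adjusted p = 0.0739) and Tnf (-1.86, adjusted p = 0.0741) no longer passed limma's test. Il1b, the gene of another inducer, gave 0.04 (adjusted p = 0.944), Il1a -0.57 (adjusted p = 0.484), Il6 1.36 (adjusted p = 0.265) and Nfkbiz -0.79 (adjusted p = 0.125). Without PBS 1, Il6 was at 0.30 (adjusted p = 0.894) and Nfkbiz at -0.32 (adjusted p = 0.526). Without IRF5-NP 1 the adjusted p was 0.0654 for Tnfaip3 and 0.0666 for Nfkbia, without IRF5-NP 2 it was 0.0603 for Nfkbia, and without IRF5-NP 3 it was 0.0966, 0.133 and 0.065 for Tnfaip3, Nfkbia and Tnf, all by limma. The members that fell include inhibitors of NF-κB as well as an inducer.

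**Figure D4:**
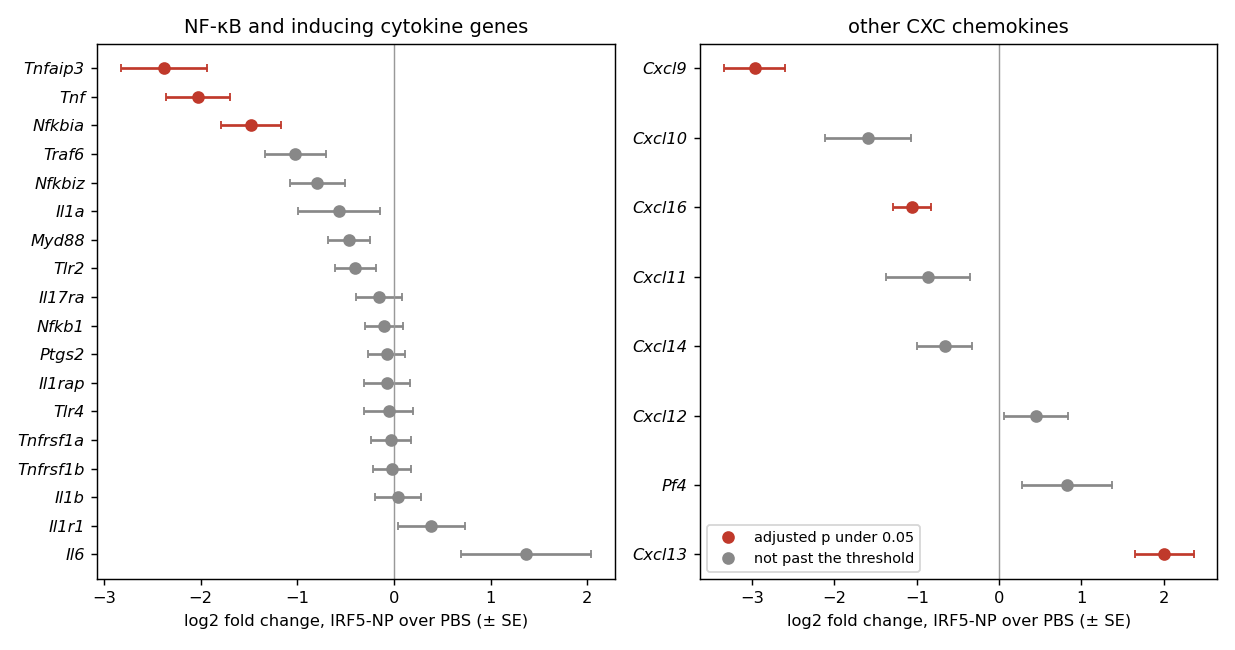
Log2 fold change (IRF5-NP over PBS, limma, bars ± SE) of the measured genes of NF-κB and inducing cytokines (left) and of the other CXC chemokines (right), red where the adjusted p was under 0.05. On the left, 3 genes are red and all lie below 0, and on the right, Cxcl9 and Cxcl16 lie below 0 and Cxcl13 above.

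Other neutrophil attractants and their receptors also split. Of the 17 with a probe among 18 listed, 2 rose, 2 fell and 13 did not pass the test, with a median of -0.37. Over all 754 genes 9.55% passed in either direction. The chemokine genes Ccl3 and Ccl4, which encode the inflammatory CC chemokines MIP-1α and MIP-1β, fell by 2.63 (adjusted p = 0.00591) and 2.86 (adjusted p = 0.0022) on the log2 scale. Ccl3 was 3669, 1488 and 1432 in PBS 1, 2 and 3 and 474, 341 and 322 in IRF5-NP 1, 2 and 3. Again PBS 1 was highest and the groups did not overlap, the latter as in 20.4% of all genes. Alox5, the 5-lipoxygenase gene needed to make the attractant leukotriene B4, rose by 1.42 (adjusted p = 0.0218), with 610 to 941 in PBS samples and 1507 to 2436 in IRF5-NP samples. Csf3, the gene of G-CSF, was below the background in all 6 samples. Leaving out 1 sample kept the call of Ccl4, whereas that of Ccl3 was lost without IRF5-NP 3 (limma adjusted p = 0.065) and that of Alox5 without PBS 1 (0.114), IRF5-NP 2 (0.0595) or IRF5-NP 3 (0.127).

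Neutrophils carry CD11b, and their transcripts were therefore examined beside the chemokines. Of 22 neutrophil markers listed, 16 had a probe. In these, 2 rose, 1 fell and 13 did not pass the test (median -0.07), whereas 9.55% of all 754 genes passed in either direction. The summed level of the 16 ranged from 6546 to 10639 in PBS samples and from 6207 to 8021 in IRF5-NP samples. Ly6g, the defining surface marker, exceeded the background in 1 sample only, IRF5-NP 2, and the granule genes Mpo and Camp in none. Mmp8, a neutrophil collagenase gene, was 157, 90.0 and 83.9 in PBS 1, 2 and 3 and 27.6, 33.1 and 33.8 in IRF5-NP 1, 2 and 3 (limma log2 fold change -1.86, adjusted p = 0.0158), with IRF5-NP 1 and IRF5-NP 3 below their background. Csf3r, the G-CSF receptor gene, rose by 0.88 (adjusted p = 0.0459) and Ceacam1, an adhesion molecule gene also expressed outside neutrophils, by 1.30 (adjusted p = 0.0166). These calls did not hold without PBS 1 (limma adjusted p = 0.103, 0.122 and 0.0701 for Mmp8, Csf3r and Ceacam1) or without IRF5-NP 3 (0.065, 0.201 and 0.105). The call of Mmp8 was also lost without IRF5-NP 1 (0.0515), and those of Csf3r and Ceacam1 without IRF5-NP 2 (0.154 and 0.0563).

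The alarmin genes S100a8 and S100a9, abundant in neutrophils and monocytes, were among the markers that were high in PBS 1. S100a8 was 3405, 1171 and 1189 in PBS 1, 2 and 3 and 987, 512 and 686 in IRF5-NP 1, 2 and 3 (limma log2 fold change -1.51, adjusted p = 0.0767). S100a9 was 2598, 458 and 429 in the PBS samples and 724, 93.7 and 72.8 in the IRF5-NP samples (-2.65, adjusted p = 0.161). Il1r2, the decoy IL-1 receptor gene, was 829, 109 and 123 in the PBS samples and 72.4, 30.9 and 39.0 in the IRF5-NP samples (-2.78, adjusted p = 0.0599). None of these passed the test, and in IRF5-NP 3 both S100a9 and Il1r2 lay below the background. Without PBS 1 the log2 fold change was -0.75 for S100a8 and -1.37 for S100a9 (limma adjusted p = 0.375 and 0.698). Like Cxcl1, Cxcl2 and Cxcl3, all were highest in PBS 1. They belong to the list of 16 neutrophil markers with a probe, whose median log2 fold change was -0.07. In that list Csf3r and Ceacam1 rose and Mmp8 fell. Il1r2 was added after its values were seen, and no value without PBS 1 is given for it. How many of the other markers were highest in PBS 1 was not counted. The part of these genes in the level of the chemokines was not tested. In sorted bulk samples, fewer cells of a type and less RNA per cell cannot be told apart.

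**Figure D5:**
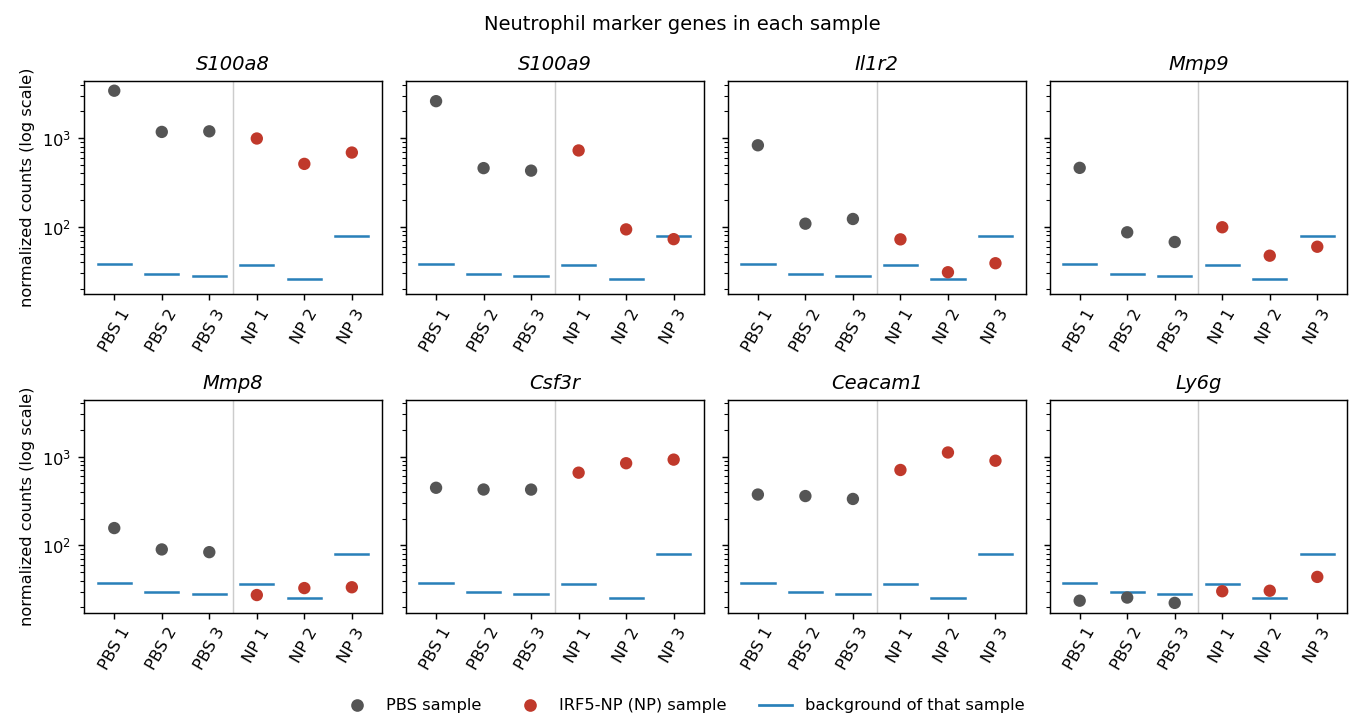
Normalized counts (log scale) of 8 neutrophil marker genes in each PBS (grey) and IRF5-NP (red, NP) sample, with each sample's background as a blue line. S100a8, S100a9, Il1r2 and Mmp9 are highest in PBS 1, Csf3r and Ceacam1 are higher in every IRF5-NP sample, and Ly6g exceeds the line in IRF5-NP 2 only. How many of all genes were higher in every IRF5-NP sample was not counted.

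Markers of the sorted macrophages and of other cells moved beside Cxcl2 as follows, where over all 754 genes 19 rose and 53 fell (9.55% in either direction). All 7 macrophage markers with a probe exceeded the background in all 6 samples, and 1, the efferocytosis receptor gene Mertk, fell (-1.23, limma adjusted p = 0.0218), while Adgre1 gave 1.15 (adjusted p = 0.181), Itgam 0.61 (adjusted p = 0.473) and Csf1r 0.03 (adjusted p = 0.960). Of 5 resident large peritoneal macrophage markers 3 rose, namely Timd4 (2.48), Selp (2.19) and Cxcl13 (2.01), and the summed level of the list was 9245 to 12588 in PBS samples and 19587 to 46565 in IRF5-NP samples. Of 5 monocyte markers 1 fell, Chil3 (-5.23), a chitinase-like protein gene also induced in macrophages by IL-4. Mesothelial cells, fibroblasts and tumor cells, which can make the same chemokines, had 3 probes among 14 listed markers, with a summed level of 129 to 161 in PBS samples and 126 to 140 in IRF5-NP samples, none above the background in all 6, and 1 that fell (Cdh1, -1.19). In the lists of eosinophil and mast cells, lymphocytes and dendritic cells, 1 of 10 (Cpa3, 1.80), 1 of 2 (Ms4a1, 1.49) and 0 of 5 passed, the first and second upward. Apart from Chil3, each of these calls was lost when some 1 sample was left out. By limma the adjusted p then reached 0.0741 without PBS 1, 0.058 without IRF5-NP 1, 0.0601 without IRF5-NP 2 and 0.121 without IRF5-NP 3 for Mertk, and 0.103 without PBS 1 and 0.0954 without IRF5-NP 3 for Timd4. Selp (0.235, 0.0515, 0.0723 and 0.18), Cdh1 (0.114, 0.0638, 0.0963 and 0.109), Cpa3 (0.165, 0.074, 0.0554 and 0.0966) and Ms4a1 (0.0739, 0.0566, 0.0963 and 0.114) lost theirs without each of the same 4 samples, in that order. Adgre1 passed without IRF5-NP 1 (1.64, adjusted p = 0.0242). The part of the make-up of the sorted cells in the lower Cxcl2 was not tested.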

How the data were processed

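The deposited values were the authors' normalized signal, linear NanoString counts of 754 genes in 6 samples, with 8 negative and 6 positive control probes unscaled. For cultured macrophages the study's methods state that nSolver scaled the values to housekeeping genes, by their geometric mean. For these sorted cells the steps are not given in the sources used here. Each sample's gene values were whole counts (within 0.01) times 1 factor, 0.952 to 2.60, and the control probes were scaled by it. Total counts before scaling were 683472 to 1830318. The positive controls differed up to 2.42-fold between samples. Their geometric mean before scaling was lowest in PBS 1 (1163) and highest in IRF5-NP 3 (2816). Below the background in all samples were 124 genes.

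The log2 values of PBS 2 and PBS 3 were averaged to 1 sample, leaving 2 PBS and 3 IRF5-NP samples. limma 3.58.1 in R 4.3.3 fitted log2(value + 1), with a mean-variance trend, to all 754 genes. Tests were two-sided. The p-values were adjusted over these genes by the Benjamini-Hochberg method, with a threshold of 0.05. The steps were tested on simulated data in which all genes had the same SD. That simulation held no distant sample such as PBS 1, so it does not show that the calls hold here. Fold changes on this scale understate those of low genes. Ratios and intervals used scipy 1.17.1. Poisson intervals have a level of 95% and used the counts before scaling.

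Named were the 5 genes, the 3 most like each of them that exceeded the background in 3 samples or more, members of the gene lists past the threshold (up to 6 a list), and fixed inducers (Tnf, Il1a, Il1b, Il6, Nfkbia, Nfkbiz, Csf3) and markers (Adgre1, Itgam, Csf1r, Ly6g, S100a8, S100a9, Csf3r). Irf5, Pf4, Il1r2, Mmp9, Mpo, Camp and Cxcr1 were added after their values were seen. The genes and lists were chosen with earlier results of these data known. Alternatives changed the test, variance prior, averaging, pseudocount (10), filter, scaling, background and samples. Symbols matched RefSeq directly for 744 genes, by synonym for 9 and not for 1.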

Additional observations from a re-analysis of the deposited data

How the results depend on the processing

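Of 16 alternatives, Cxcl1, Cxcl3 and Cxcr2 kept their direction and missed the threshold in all. As reported, 72 genes passed, 19 higher and 53 lower, of the 5 chemokine and receptor genes 1, Cxcl2. With the methods' t-test after Benjamini-Hochberg or Benjamini-Yekutieli adjustment, 0 genes passed, 0 higher and 0 lower (125 at an unadjusted p under 0.05, against 191 by limma), 0 of the 5 among them, and Cxcl2 stayed at -2.18 (adjusted p = 0.308 and 1). Without a variance trend 41 passed, 8 higher and 33 lower, 0 of the 5, with Cxcl2 at -2.18 (adjusted p = 0.0871). With 6 separate samples 121 passed, 37 higher and 84 lower. With all samples set to 1 median, which moved the median of all genes from -0.03 to 0.21, 78 passed, 42 higher and 36 lower, 0 of the 5, and Cxcl2 was -1.94 (adjusted p = 0.0517), Twistnb 0.14 and Il21r 0.018, both of opposite sign to the reported -0.10 and -0.22. After quantile normalization 75 passed, 35 higher and 40 lower, 0 of the 5, with Cxcl2 at -1.94 (adjusted p = 0.0773) and Twistnb at 0.069. With negative controls subtracted 24 passed, 4 higher and 20 lower, 0 of the 5, with Cxcl2 at -2.26 (adjusted p = 0.205) and Cxcl5 at -0.51. The cause of these shifts was not tested.

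Leaving out 1 sample at a time gave 21 (without IRF5-NP 3) to 83 genes past the threshold, 2 to 24 higher and 19 to 59 lower, and 0 (without IRF5-NP 1 or IRF5-NP 3) or 1 of the 5. It was 35 without PBS 1 and 41 without IRF5-NP 2. Cxcl2 ranged from -2.27 to -1.18 and Cxcl5 from -0.52 (without IRF5-NP 3) to 0.47, with -0.02 without PBS 3. Signs also turned for Il1b (range -0.13 to 0.13, below 0 at -0.024 without PBS 1 and -0.13 without IRF5-NP 3), Csf3 (-0.26 to 0.20, above 0 without PBS 1), Twistnb (-0.14 to 0.026, above 0 without PBS 1) and Csf1r (-0.038 to 0.31, below 0 without IRF5-NP 2 and, at -0.018, without IRF5-NP 3). None of these 4 genes passed the threshold in any of these fits.

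Replicates share numbers across groups, but their deviations over 482 genes correlated at 0.159, 0.178 and 0.0953 for numbers 1, 2 and 3, and PBS 3 correlated better with IRF5-NP 2 (0.144) than with its own number. With 6 separate samples and the replicate number as a block, 135 genes passed, 52 higher and 83 lower, with Cxcl2 among them (-1.85, adjusted p = 0.037) and the other 4 not. Of the other genes named, Il6 (1.01, adjusted p = 0.0245), Adgre1 (1.07, 0.0481), S100a8 (-1.26, 0.0113), S100a9 (-2.22, 0.00101) and Cd163 (-1.83, 0.0476) passed with the block and not as reported. A planned count test on counts recovered from the normalized values was not run. Precision is limited by 5 counted samples and, for Cxcl3, Cxcl5 and Cxcr2, by counts near the background, most of all in IRF5-NP 3.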
